A study of Homo sapiens with 4 samples.

Results

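The genes described here are 10 chemokine genes, CXCL1, CXCL2, CXCL3, CXCL5, CXCL8, CXCL10, CXCL11, CXCL16, CCL2 and CCL20, out of 48162 genes counted. They were picked by symbol with their levels in knockdown and wild-type libraries already known, so their differences between those groups are given as a description and carry no test. The counts came from RNA sequencing of MDA-MB-453, a human breast cancer cell line. A group of 2 libraries was labelled TMEM9 KD, in which TMEM9 (a membrane protein of endosomes and lysosomes) was reduced, and a group of 2 libraries was labelled wild type (WT). The sources used here give neither the means of knockdown nor whether the TMEM9 KD cells were 1 clone or a pool. The series' design text speaks of retinal profiles, whereas every sample label names the breast cancer line. Separate cultures are not stated for libraries of 1 group, so each p-value reflects only how far these libraries differed, possibly for technical reasons.

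Chemokines are small secreted proteins that draw cells along a gradient by binding G protein-coupled receptors. CXC chemokines with the amino acids glutamate, leucine and arginine before their first cysteines (CXCL1, CXCL2, CXCL3, CXCL5 and CXCL8 among these) act mainly on the receptor CXCR2 of neutrophils, and CXCL8 also on CXCR1. CXCL10 and CXCL11 lack these amino acids, are induced by interferons and act on CXCR3 of activated T cells and natural killer cells. In epithelial and tumour cells the transcription factor NF-kB is a well-known inducer of these genes, and AU-rich stretches in the 3′ untranslated region (UTR) of several of them make the mRNA short-lived.

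The promoters of 8 of the 10 genes were present in the RefSeq table used here (build GRCh38.p14), those of CXCL16 and CCL2 being named only. For 6 of them, the genes with the highest WT levels, the bases just before the annotated start are printed here, because they show which short sequences these genes have in common. Sequences run 5′ to 3′ on the strand of the gene, and capitals mark every match to the kappaB consensus (a 10-base site that NF-kB can bind) or to its 9-base core GGAATTTCC on either strand. The stretches were chr4:73869243-73869392 on the plus strand for CXCL1, chr4:74099196-74099345 on the minus strand for CXCL2, chr4:74038690-74038839 on the minus strand for CXCL3, chr4:73740419-73740568 on the plus strand for CXCL8, chr4:76023498-76023737 on the minus strand for CXCL10 and chr4:76036071-76036220 on the minus strand for CXCL11.
CXCL1: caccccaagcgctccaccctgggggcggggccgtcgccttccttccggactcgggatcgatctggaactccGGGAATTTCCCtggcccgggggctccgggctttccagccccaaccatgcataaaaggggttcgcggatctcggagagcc
CXCL2: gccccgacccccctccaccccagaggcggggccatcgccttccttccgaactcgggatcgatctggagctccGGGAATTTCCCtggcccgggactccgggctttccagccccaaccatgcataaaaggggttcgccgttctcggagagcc
CXCL3: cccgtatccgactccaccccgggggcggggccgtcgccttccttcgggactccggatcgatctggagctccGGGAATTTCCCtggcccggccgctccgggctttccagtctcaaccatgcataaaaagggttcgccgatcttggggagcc
CXCL8: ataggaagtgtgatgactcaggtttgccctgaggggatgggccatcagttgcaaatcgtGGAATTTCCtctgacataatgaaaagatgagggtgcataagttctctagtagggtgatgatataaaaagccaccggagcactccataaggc
CXCL10: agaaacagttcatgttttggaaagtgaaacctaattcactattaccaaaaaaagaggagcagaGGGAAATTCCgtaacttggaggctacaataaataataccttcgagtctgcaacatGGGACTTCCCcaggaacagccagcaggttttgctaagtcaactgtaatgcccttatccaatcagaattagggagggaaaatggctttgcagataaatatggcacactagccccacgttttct
CXCL11: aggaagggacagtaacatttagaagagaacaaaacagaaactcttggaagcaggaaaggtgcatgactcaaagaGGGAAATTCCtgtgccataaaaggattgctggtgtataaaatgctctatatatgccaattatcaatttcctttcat

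The kappaB core was found within 250 bases before the start in 7 of the 8 promoters, against 0.428% of 27305 RefSeq promoters of the same length. CCL20 was without the core but held a match to the longer consensus, which 7 of the 8 promoters and 9.57% of all promoters held. The core lies inside the consensus wherever both matched, and CXCL8 held the core alone. In CXCL1, CXCL2 and CXCL3 the capitals sit at almost the same distance from the start, and the 150 bases before the start were 88.8% identical between CXCL1 and CXCL2, 88.1% between CXCL1 and CXCL3 and 86.3% between CXCL2 and CXCL3. No other pair of the 8 reached more than 53.4%, the value for CXCL10 and CXCL11. Given this identity, the matches in CXCL1, CXCL2 and CXCL3 are not separate cases, and the shares above overstate the contrast. A match to TGANTCA, a site of the AP-1 factors, was present in 2 of the 8 promoters (CXCL8 and CXCL11) and in 6.6% of all promoters. The interferon response pattern, GAAA repeated with 2 free bases in between, was present in CXCL10 alone of the 8 and in 3.07% of all promoters. Both strands were searched for each pattern, the patterns were chosen after the members' values were known, and a match is a description of letters, not of binding.

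The libraries held 15960941 and 17065126 counts in TMEM9 KD and 15323843 and 18517337 in WT. TMEM9 itself had 51 and 78 counts in TMEM9 KD against 1120 and 1497 in WT, a log2 fold change of -4.37 (SE 0.13, edgeR quasi-likelihood adjusted p = 4.12e-52). Of 18 markers expected of the cell line, 11 passed the expression filter, of which 5 rose, 4 fell and 2 (KRT8 and ERBB3) were not called. That is 81.8% called, beside 57.7% of all genes tested. The receptor gene FGFR4 fell to 3.36 ± 0.433 CPM in TMEM9 KD, against 35.3 ± 0.316 CPM in WT (SD, n = 2 each, log2 fold change -3.39, adjusted p = 3.02e-37). DHRS2 rose by 3.08, ALCAM by 2.05, FOXA1 by 1.48 and GATA3 by 1.29 on the log2 scale (adjusted p = 3.5e-22, 1.1e-43, 1.36e-08 and 2.84e-06). The luminal markers PIP, SPDEF, TFF3, AGR2 and KRT19 were at or near 0, with at most 8 counts over the libraries of a group, so the label is matched by only part of the list. Levels are given in CPM, the count scaled to library size with TMM factors, and log2 fold changes are of TMEM9 KD over WT from the edgeR fit over 14923 genes.

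All 10 chemokine genes were lower in TMEM9 KD, and for each of them both knockdown libraries lay below both wild-type libraries. The same held for 25.1% of all genes with a count and for 38.5% of the genes tested, and nothing is read from the difference, since the genes were picked on this contrast. By size of the difference they fell into a group that nearly vanished (CXCL10 and CXCL11), a group several-fold lower (CXCL1, CXCL3, CCL2 and CCL20) and a group lower by 2- to 4-fold (CXCL2, CXCL8 and CXCL16), with CXCL5 too low to place. All 9 genes that passed the expression filter were lower by at least 2-fold in the fit, as were 10.4% of all genes tested. By at least 4-fold it was 6 of the 9 and 4.44% of all genes tested. CXCL10, CXCL11, CCL2 and CCL20 passed the filter through the WT libraries alone.

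**Figure D1:**
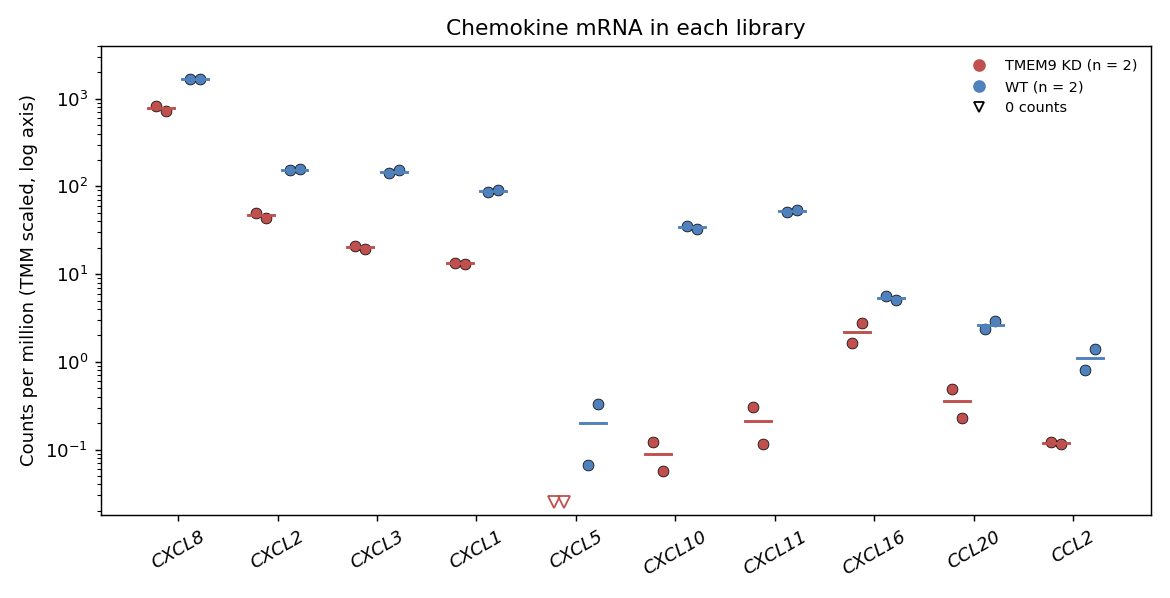
CPM of each of the 10 chemokine genes in every library on a log axis; points are libraries (n = 2 per group), short lines are group means, and open triangles stand for libraries with 0 counts. CXCL8 lies near 777 CPM in TMEM9 KD and 1692 CPM in WT, while CXCL10 and CXCL11 lie below 0.31 CPM in both TMEM9 KD libraries and above 32 CPM in both WT libraries.

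CXCL8, the main human neutrophil attractant, was by far the most abundant mRNA among the chemokine ligand genes matched to the table. It had 826 and 729 CPM in TMEM9 KD against 1690.1 and 1694 CPM in WT, and the groups did not overlap. Its log2 fold change was -1.12 (SE 0.05), which is 54.1% lower. In WT it ranked 40th by CPM among the genes tested, and in TMEM9 KD 118th, so it stayed an abundant mRNA in both groups.

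CXCL1, CXCL2 and CXCL3 are related copies within a gene cluster and share the receptor CXCR2. CXCL1 had 13.6 and 13.1 CPM in TMEM9 KD against 86.9 and 90.5 CPM in WT (log2 fold change -2.74, SE 0.10). CXCL2 had 50.3 and 43.5 CPM in TMEM9 KD against 154 and 157 CPM in WT (log2 fold change -1.73, SE 0.07). CXCL3 had 21.0 and 19.3 CPM in TMEM9 KD against 142 and 153 CPM in WT (log2 fold change -2.87, SE 0.08). All 3 were lower in both knockdown libraries, and CXCL2 less so than the other two.

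The balance among these copies differed between the groups as well. The ratio of CXCL2 to CXCL1 counts was 3.71 and 3.33 in TMEM9 KD and 1.77 and 1.73 in WT. The ratio of CXCL3 to CXCL1 was 1.55 and 1.48 in TMEM9 KD and 1.63 and 1.69 in WT, a much smaller shift. CXCL1 and CXCL3 thus differed between the groups by nearly the same factor, and CXCL2 by a smaller one. The 3 genes share sequence, so some reads could have been split among them: of the 50-base windows of their GENCODE 29 transcripts, 4.81% of those of CXCL1, 12.5% of CXCL2 and 6.01% of CXCL3 occur in another gene, in each case one of the other two. CXCL8, CXCL10, CXCL11, CCL2 and CCL20 shared no such window with any other gene.

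CXCL5, a further ligand of CXCR2, was hardly present. It had 0 counts in both TMEM9 KD libraries and 1 and 6 counts in the WT libraries. With TMEM9 KD set at a floor of 3 counts (both libraries summed), it was at least 2.40-fold lower, a bound for counting error only. CXCL5 did not pass the expression filter, and its WT counts came mostly from 1 library.

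CXCL10 and CXCL11, the ligands of CXCR3, were close to absent in TMEM9 KD. CXCL10 had 2 and 1 counts (0.122 and 0.0573 CPM) in TMEM9 KD against 536 and 583 counts (35.8 and 32.4 CPM) in WT. The ratio of TMEM9 KD to WT was 0.00261, with a 95% counting interval of 0.000537 to 0.00765 (Clopper-Pearson). CXCL11 had 5 and 2 counts (0.305 and 0.115 CPM) in TMEM9 KD against 768 and 960 counts (51.4 and 53.4 CPM) in WT. Its log2 fold change was -7.93 (SE 0.22), or -8.74 without TMEM9_KD replicate 1, which held most of its knockdown counts. Among the 14923 genes tested, CXCL10 stood 16th and CXCL11 26th from the lowest fitted log2 fold change. CXCL9, the other interferon-induced ligand of CXCR3, had no count in any library, where 3 counts would be 0.183 and 0.172 CPM in TMEM9 KD and 0.201 and 0.167 CPM in WT.

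CXCL16 is made as a membrane-bound chemokine that binds CXCR6 and is shed by the proteases ADAM10 and ADAM17. It had 1.65 and 2.75 CPM in TMEM9 KD against 5.62 and 5.06 CPM in WT, and the groups did not overlap. Its log2 fold change was -1.27 (SE 0.27). The TMEM9 KD libraries differed more from each other than the WT libraries did, at 27 and 48 counts against 84 and 91.

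The CC chemokines were low in both groups. CCL20, which acts on CCR6 of dendritic cells and of T cells that make IL-17, had 8 and 4 counts in TMEM9 KD against 35 and 52 in WT. Its log2 fold change was -2.86 (SE 0.48), or -3.47 without TMEM9_KD replicate 1. CCL2, the monocyte attractant that acts on CCR2, had 2 and 2 counts in TMEM9 KD against 12 and 25 in WT (log2 fold change -3.16, SE 0.71). Both genes had counts in every library and neither overlapped between the groups, but with so few counts the size of the difference is loose: the level in TMEM9 KD as a share of that in WT had a 95% counting interval from 0.0272 to 0.293 for CCL2 and one from 0.0668 to 0.247 for CCL20.

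Levels per kilobase of exon allow a rough comparison of genes. The length used joins all annotated exons of a gene (1296 bases for CXCL1, 1500 for CXCL2 and 2219 for CXCL3). It can exceed that of the mRNA present, so the order depends on the annotation. By CPM alone, CXCL3 averaged 147 in WT, against 155 for CXCL2 and 88.7 for CXCL1. Per kilobase, the order of levels in WT was led by CXCL8 at 744 ± 1.13 CPM per kilobase (SD, n = 2). CXCL2 followed at 103 ± 1.4, then CXCL1 at 68.5 ± 1.94 and CXCL3 at 66.4 ± 3.55, which did not differ beyond their spread. CXCL10 at 29 ± 2.05 and CXCL11 at 27.5 ± 0.756 CPM per kilobase did not differ beyond their spread either. CXCL16 at 1.91 ± 0.141 and CCL20 at 1.64 ± 0.245 were close to each other, and CCL2 at 0.552 ± 0.209 and CXCL5 at 0.0789 ± 0.0744 came last. In TMEM9 KD the order began in the same way, with CXCL8 at 342 ± 30.2, CXCL2 at 31.3 ± 3.2, CXCL1 at 10.3 ± 0.271 and CXCL3 at 9.08 ± 0.543 CPM per kilobase. CXCL10 and CXCL11, however, lay at 0.0763 ± 0.039 and 0.11 ± 0.0707 CPM per kilobase in TMEM9 KD, below CXCL16 at 0.787 ± 0.279.

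The chemokines that signal through CXCR2 made up nearly all counts of the chemokine ligand genes matched to the table, in both groups. Of 38 other ligand genes listed, 26 were matched. CCL3, CCL4 and CCL5 were not among the matched genes, so their levels are not part of these shares. CXCL1, CXCL2, CXCL3, CXCL5 and CXCL8 together came to 858 ± 75.1 CPM in TMEM9 KD and 2083 ± 15.3 CPM in WT. Without CXCL8 the other four summed to 80.3 ± 6.35 CPM in TMEM9 KD and 391 ± 12.7 CPM in WT. CXCL8 took 86.3% and 85.5% of the counts of all measured chemokine ligands in TMEM9 KD, against 75.4% and 74.9% in WT. CXCL10 and CXCL11 together summed to 0.3 ± 0.181 CPM in TMEM9 KD and 86.5 ± 0.973 CPM in WT.

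**Figure D2:**
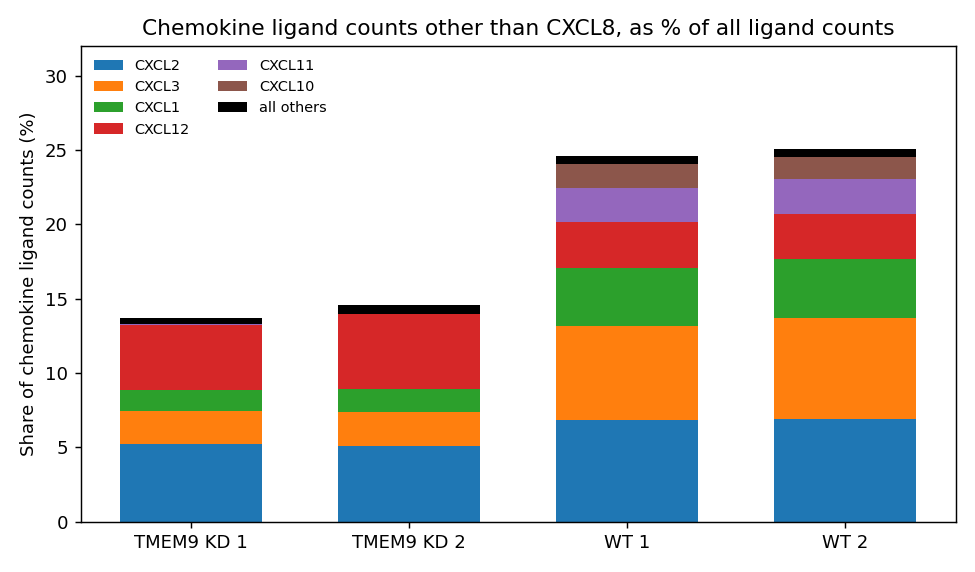
Share of the counts of all matched chemokine ligand genes held by each ligand other than CXCL8, in percent, as stacked bars for each library. CXCL8 holds the rest up to the whole. CXCL10 and CXCL11 are visible as bands in the WT bars (1.6% and 2.29% in WT replicate 1) and all but missing from the TMEM9 KD bars, where CXCL12 takes 4.37% and 5.07%.

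Outside the 10 genes, 26 other chemokine ligand genes of 38 listed were matched to the table, 14 of them had no count in any library and only 3 passed the filter. CX3CL1, the membrane-bound fractalkine that binds CX3CR1, fell, with 0 and 0 counts in TMEM9 KD against 21 and 37 in WT. Set at the same floor of 3 counts, it was at least 19.9-fold lower (edgeR adjusted p = 1.16e-09). CXCL12, the ligand of CXCR4 and ACKR3, fell with a log2 fold change of -0.70 (SE 0.08, edgeR adjusted p = 4.65e-12), averaging 42.5 ± 1.04 CPM in TMEM9 KD and 69 ± 1.23 CPM in WT. CXCL14, a chemokine of epithelia, rose, with 18 and 16 counts in TMEM9 KD against 1 and 0 in WT, a level 33.1 times that in WT (95% counting bounds of 5.55 and 1345, edgeR adjusted p = 8.39e-06). Its fitted log2 fold change was 4.74 with all libraries and 3.76 without WT replicate 2, and 7.13 without WT replicate 1, which leaves WT at 0 and is no bound. By comparison, 57.7% of all genes tested passed an adjusted p of 0.05 in this fit, 28.7% upward and 29% downward.

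Receptors for these chemokines were scarce. Of 23 receptor genes, 6 passed the filter, 1 rose, 1 fell and 4 were not called, with a median log2 fold change of 0.40 beside 0.01 over all genes tested. The share called was 33.3%, beside 57.7% of all genes tested. CXCR1 had no count, CXCR2 had 1 and 3 counts in TMEM9 KD against 1 and 0 in WT, and CXCR3 had 0 and 0 in TMEM9 KD against 2 and 1 in WT. ACKR4, a receptor that takes up CC chemokines without signalling, fell to 4.77 ± 0.257 CPM in TMEM9 KD, against 12.1 ± 1.06 CPM in WT (log2 fold change -1.34, edgeR adjusted p = 2.65e-10). CCRL2, which presents chemerin, rose to 1.35 ± 0.441 CPM in TMEM9 KD, against 0.484 ± 0.023 CPM in WT (log2 fold change 1.47, adjusted p = 0.0107). That call ended with DESeq2 (adjusted p = 0.0917), without WT replicate 1 (0.0919), without WT replicate 2 (0.0901) and without TMEM9_KD replicate 2 (0.249). CXCR6, the receptor of CXCL16, had 30 and 23 counts in TMEM9 KD against 16 and 11 in WT and was not called (adjusted p = 0.0724). CCR10 (adjusted p = 0.0846), CCR1 (0.844) and ACKR3, a scavenger of CXCL11 and CXCL12 (0.655), were not called.

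**Figure D3:**
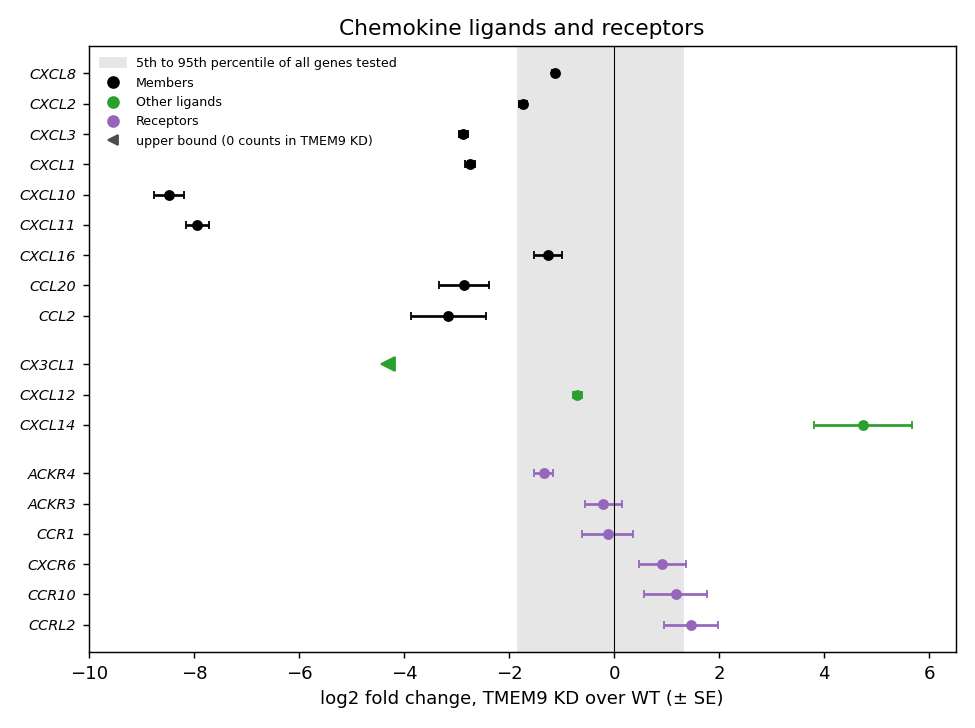
Log2 fold changes of TMEM9 KD over WT with their SE for the chemokine genes, the other ligands and the receptors that passed the expression filter; the grey band spans the 5th to 95th percentile of all genes tested (-1.83 to 1.32), and the triangle for CX3CL1 marks its bound, since it had 0 counts in TMEM9 KD. CXCL10 and CXCL11 lie at -8.47 and -7.93, CXCL14 with a single WT count lies far to the right, and the 6 receptors lie between -1.34 (ACKR4) and 1.47 (CCRL2).

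A further list held cytokines, receptors, adaptors and kinases of pathways that switch chemokine genes on. It was chosen with earlier results of these data known, and its genes were more often lower. Of 30 such genes tested, 15 fell, 5 rose and 10 were not called (median log2 fold change -0.25 beside 0.01 over all genes). In all, 66.7% were called, beside 57.7% of all genes tested (29% lower and 28.7% higher). IL1A, an interleukin-1 that tumour cells can release themselves, fell to 10.3 ± 0.00692 CPM in TMEM9 KD, against 113.7 ± 0.133 CPM in WT (log2 fold change -3.46, edgeR adjusted p = 2.84e-53). IL1B fell to 67.2 ± 1.75 CPM in TMEM9 KD, against 198 ± 6.72 CPM in WT (log2 fold change -1.56, adjusted p = 1.39e-37). The receptor chains that bind both cytokines fell less, IL1R1 by 0.80 and IL1RAP by 0.80 on the log2 scale (adjusted p = 1.53e-20 and 1.28e-18). TLR2, a receptor of bacterial lipoproteins, fell by 3.98 on the log2 scale (adjusted p = 1.93e-28), and the TNF receptor gene TNFRSF1A fell by 0.94 (adjusted p = 1.63e-25). The other TNF receptor gene, TNFRSF1B, rose to 25.4 ± 1.95 CPM in TMEM9 KD, against 18.2 ± 0.559 CPM in WT (log2 fold change 0.48, adjusted p = 0.000245). NOD2, a sensor of bacterial cell wall, fell by 1.68 (adjusted p = 0.00354), a call that ended with DESeq2 (0.0515), without WT replicate 2 (0.207) and without TMEM9_KD replicate 2 (0.0747). TNF itself had 3 and 4 counts in TMEM9 KD against 0 and 0 in WT and was not tested.

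Among the genes of this list that rose was IRAK1, a kinase that carries the signal of interleukin-1 and Toll-like receptors. It rose to 349 ± 48.9 CPM in TMEM9 KD, against 163 ± 2.58 CPM in WT (log2 fold change 1.10, edgeR adjusted p = 2.6e-29). IL17RD, a modulator of IL-17 and fibroblast growth factor signalling, rose from few counts, with 13 and 13 in TMEM9 KD against 3 and 1 in WT (log2 fold change 2.58, adjusted p = 0.00254). The call of IL17RD ended with DESeq2 (adjusted p = 0.0522) and without WT replicate 2 (0.149, log2 fold change 1.89), and without WT replicate 1 its log2 fold change was 3.62.

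Of the NF-kB subunits that bind kappaB sites, REL rose and NFKB1, NFKB2, RELA and RELB were not called. Of the genes that they are known to induce, TNFAIP3 and NFKBIA fell. REL averaged 8.48 ± 1.62 CPM in TMEM9 KD and 5.97 ± 0.213 CPM in WT (log2 fold change 0.51, edgeR adjusted p = 0.0154). The adjusted p was 0.157 for NFKB2 and 0.115 for RELB. NFKB1 averaged 155 ± 1.93 CPM in TMEM9 KD and 149 ± 2.19 CPM in WT (adjusted p = 0.438), and RELA 104 ± 5.11 CPM in TMEM9 KD and 95.6 ± 2.88 CPM in WT (adjusted p = 0.121). A p that misses the threshold does not show that the levels are equal. Of 23 genes of NF-kB subunits, kinases and inhibitors tested, 9 fell, 7 rose and 7 were not called (median log2 fold change -0.12). The share called was 69.6%, beside 57.7% of all genes tested. TNFAIP3, a deubiquitinase that damps the pathway and is its own target, fell to 28.4 ± 0.321 CPM in TMEM9 KD, against 92.5 ± 5.96 CPM in WT (log2 fold change -1.70, adjusted p = 1.54e-33). NFKBIA, the inhibitor that holds NF-kB in the cytoplasm, fell by 1.16 on the log2 scale (adjusted p = 4.83e-31). BIRC3, also a known NF-kB target, went the other way and rose to 148 ± 10.7 CPM in TMEM9 KD, against 48.3 ± 1.46 CPM in WT (log2 fold change 1.61, adjusted p = 5.03e-36). BIRC2, its neighbour and relative, rose by 0.74 (adjusted p = 3.98e-18), and TNIP1 fell by 0.64 (adjusted p = 1.41e-17).

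Interferons, their receptors and the sensors of nucleic acids upstream of them are known inducers of CXCL10 and CXCL11 in many cells. Of 24 genes of this arm tested, 15 fell, 2 rose and 7 were not called (median log2 fold change -0.50). The share called was 70.8%, beside 57.7% of all genes tested (29% lower). STING1, the adaptor of cytosolic DNA sensing, fell to 1.27 ± 0.235 CPM in TMEM9 KD, against 17.6 ± 1.02 CPM in WT (log2 fold change -3.79, edgeR adjusted p = 8.58e-30). The interferon-gamma receptor gene IFNGR1 fell by 1.50, the kinase gene JAK2 by 1.49 and IL10RB, a chain of the interferon-lambda receptor, by 1.58 on the log2 scale (adjusted p = 2.13e-36, 6.08e-19 and 4.91e-13). RIGI, a sensor of viral RNA, fell by 1.14 (adjusted p = 1.26e-15). MAVS, the adaptor that RIGI signals through, rose by 0.20, and the DNA sensor gene CGAS, at a log2 fold change of 0.15, was not called (adjusted p = 0.0235 and 0.168). IRF1, a transcription factor of this arm, fell by 0.41 (adjusted p = 2.2e-05). The interferon genes IFNB1, IFNL1, IFNL2, IFNL3 and IFNG had no count in any library.

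AP-1 and C/EBP factors act beside NF-kB on the CXCL8 promoter. All 13 tested genes of a list of these factors and EGR1, which belongs to neither family, passed the threshold, 8 upward and 5 downward (median log2 fold change 0.47). Without EGR1 it was 7 upward and 5 downward of 12 (median 0.54). Over all genes tested, 28.7% passed upward and 29% downward. FOSL1 rose to 219 ± 12.9 CPM in TMEM9 KD, against 61.0 ± 2.81 CPM in WT (log2 fold change 1.84, edgeR adjusted p = 8.75e-43), BATF3 by 1.64 (adjusted p = 9.43e-09) and JUN by 1.09 (adjusted p = 2.19e-26). FOS fell by 1.37 and JUNB by 1.10 on the log2 scale (adjusted p = 9.72e-05 and 3.06e-22). FOSB rose by 1.12 (adjusted p = 0.016), a call that ended with DESeq2 (0.0955), without WT replicate 1 (0.205) and without TMEM9_KD replicate 1 (0.132).

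The mRNA tails of the members differ in how many AU-rich elements they carry. In the longest 3′ UTR of each coding gene in GENCODE 29, the pentamer ATTTA occurred 13.9 times per kilobase in CXCL2, 10.4 in CXCL3, 7.19 in CXCL8, 7.08 in CXCL1, 6.24 in CCL20 and 5.51 in CXCL5. It occurred 2.11 times per kilobase in CCL2, 1.23 in CXCL10, 1.02 in CXCL16 and 0.9 in CXCL11, where the median over 18672 genes was 1.50. The nonamer TTATTTATT was present in CXCL1, CXCL2, CXCL3 and CXCL8, 4 of the 10, and in 8.3% of all genes.

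Factors known to control the decay of such mRNAs, some clearing them and some, such as ELAVL1 and ARID5A, stabilising them, went both ways, with 3 of 12 higher, 4 lower and 5 not called (median log2 fold change 0.01, equal to that of all genes at this precision). The share called was 58.3%, close to the 57.7% of all genes tested. ZC3H12A, the nuclease Regnase-1, fell to 43.5 ± 0.292 CPM in TMEM9 KD, against 138 ± 4.18 CPM in WT (log2 fold change -1.67, edgeR adjusted p = 7.52e-37). ZFP36, which gives tristetraprolin, averaged 9.62 ± 0.735 CPM in TMEM9 KD and 9.9 ± 0.00264 CPM in WT and was not called (adjusted p = 0.85). TIA1, ZFP36L1 and ZFP36L2 fell by 0.45, 0.40 and 0.30, and KHSRP, which helps decay of such mRNAs, rose by 0.36 (adjusted p at most 0.000127). ELAVL1 rose by 0.18 (adjusted p = 0.0142).

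Genes of proteases and glycans that trim, shed or hold chemokines were mostly lower, with 17 of 21 lower, 1 higher and 3 not called (median log2 fold change -0.68). The share called was 85.7%, beside 57.7% of all genes tested (29% lower). MMP14, a membrane metalloproteinase, fell by 6.41 on the log2 scale (edgeR adjusted p = 1.49e-70) and MMP13 by 3.02 (adjusted p = 1.62e-22). SDC1, the syndecan whose heparan sulfate binds chemokines, fell to 61.6 ± 1.23 CPM in TMEM9 KD, against 302 ± 2.01 CPM in WT (adjusted p = 8.36e-52). SULF1, which edits heparan sulfate, fell by 4.48 (adjusted p = 6.91e-26). DPP4, the peptidase that removes the first amino acids of CXCL10 and CXCL11, fell by 2.17 (adjusted p = 1.18e-12). ADAM10 and ADAM17, which shed CXCL16, fell by 0.35 and 0.55 (adjusted p = 1.94e-06 and 1.01e-07).

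**Figure D4:**
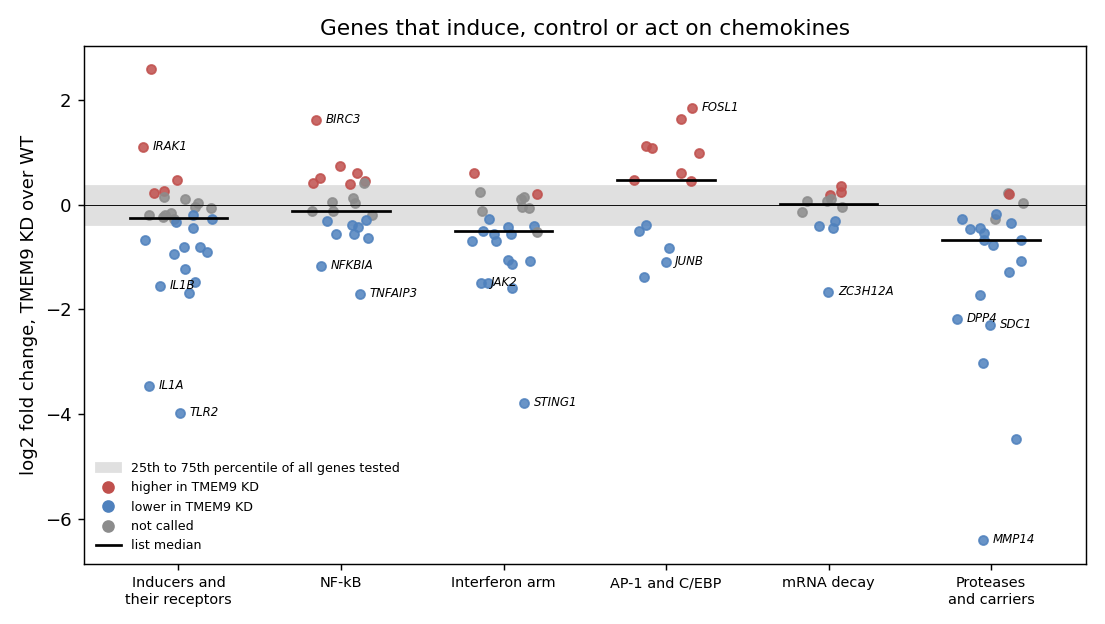
Log2 fold changes of TMEM9 KD over WT for the tested genes of 6 lists, with called genes coloured by direction, black lines at the list medians and a grey band from the 25th to the 75th percentile of all genes tested (-0.39 to 0.37). The medians are -0.25 for inducers with their receptors, adaptors and kinases, -0.12 for NF-kB and -0.50 for the interferon arm. They are 0.47 for AP-1 and C/EBP (with EGR1), 0.01 for factors of mRNA decay and -0.68 for proteases and carriers.

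Of the 10 genes, 7 lie on chromosome 4, in a cluster from CXCL8 to CXCL2 and in a further pair, CXCL10 and CXCL11. Their neighbours did not share 1 direction. Before CXCL8, RASSF6 fell by 2.28 on the log2 scale and AFP rose by 1.33 (edgeR adjusted p = 7.54e-08 and 0.000142). After CXCL2, MTHFD2L fell by 0.43 (adjusted p = 0.000797) and the growth factor gene EPGN fell by 3.68 (adjusted p = 4.25e-17), while EREG, a growth factor gene of the same family, averaged 432 ± 15.5 CPM in TMEM9 KD and 452 ± 14.9 CPM in WT (adjusted p = 0.326). Beside CXCL10 and CXCL11, SDAD1 rose by 0.59 and NUP54 by 0.23, and SCARB2 fell by 0.45 (adjusted p = 4.14e-09, 0.0127 and 1.36e-10). ART3, next to CXCL10, had 0 and 0 counts in TMEM9 KD against 6 and 14 in WT. FAM47E, further along, had 3 and 4 counts in TMEM9 KD against 11 and 6 in WT, and neither gene passed the filter. The ligand genes lying between the members, CXCL6, PF4V1, PF4 and PPBP, had at most 1 count in a library. On chromosome 17, PELP1 near CXCL16 rose by 0.41 and TMEM98 near CCL2 by 1.53 (adjusted p = 1.82e-05 and 3.15e-05), and on chromosome 2, DAW1 next to CCL20 rose by 2.76 (adjusted p = 4.38e-05) and PID1, also near CCL20, fell by 0.51 (adjusted p = 1.64e-08). ARRB2 and MED11, near CXCL16, were not called (adjusted p = 0.874 and 0.137).

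**Figure D5:**
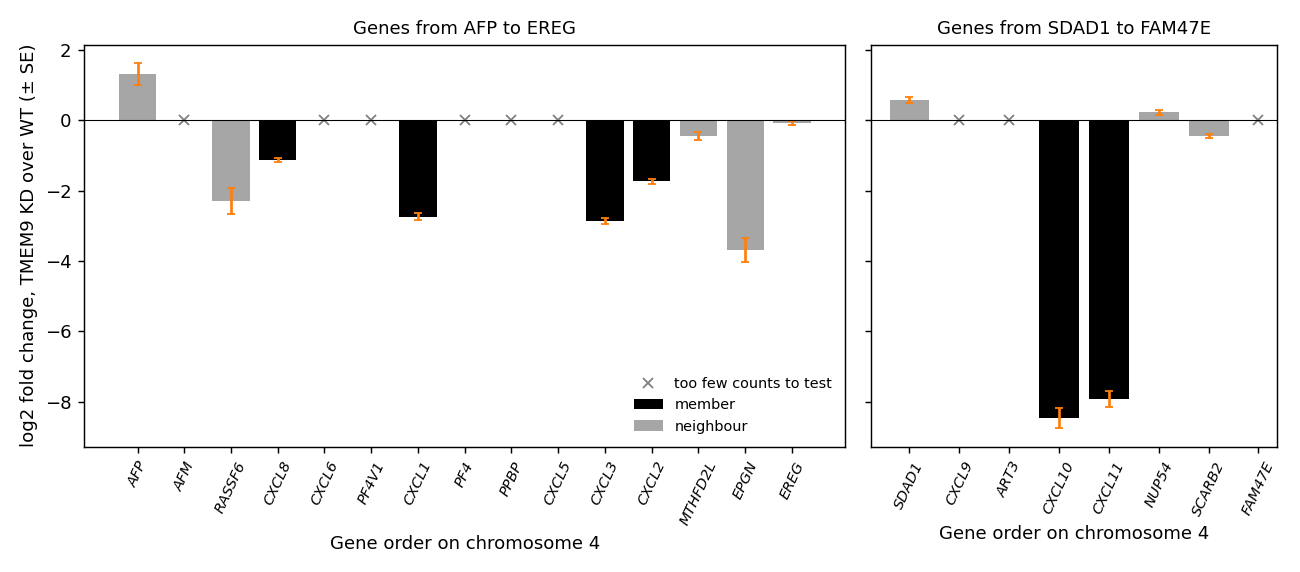
Log2 fold changes of TMEM9 KD over WT (bars, with SE) in gene order along 2 stretches of chromosome 4, members in black, neighbours in grey, and crosses for genes with too few counts to test, CXCL5 among them. CXCL10 and CXCL11 reach -8.47 and -7.93 between tested neighbours that lie within 0.59 of 0. RASSF6, next to CXCL8, lies at -2.28. After CXCL2 come MTHFD2L at -0.43 and then EPGN at -3.68.

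Chemokine mRNA can also come from other cell types, and in bulk RNA fewer cells of a type and less RNA per cell cannot be told apart. Of 24 leukocyte markers, 5 passed the filter, 4 fell and 1 rose, and 7 (CD3E, CD3G, MS4A1, LYZ, FCGR3A, C1QA and AIF1) had no count in any library. Among all genes tested, 29% fell and 28.7% rose. The list summed to 14.7 and 16.4 CPM in TMEM9 KD and 203 and 202 CPM in WT. Most of the WT sum was LCP1, an actin-bundling gene that carcinoma lines also express, and without it the other 23 summed to 8.86 and 9.91 CPM in TMEM9 KD and 17.2 and 18.7 CPM in WT. CD14 fell by 2.59 and CORO1A fell by 1.54 on the log2 scale (edgeR adjusted p = 1.17e-13 and 3.2e-06), with log2 fold changes of -3.32 and -2.18 without TMEM9_KD replicate 2. CSF1R fell by 1.03 (adjusted p = 0.0196) and PTPRC rose by 0.72 (adjusted p = 0.018), and with DESeq2 neither was called (adjusted p = 0.12 and 0.104). The calls of CSF1R and PTPRC also ended without WT replicate 1 (adjusted p = 0.167 and 0.141), that of CSF1R without TMEM9_KD replicate 2 (0.34; its log2 fold change was -1.86 without replicate 1), and that of PTPRC without TMEM9_KD replicate 1 (0.0676).

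Fibroblast markers summed to 2900.4 and 3126 CPM over 14 genes in TMEM9 KD and to 3734 and 3763 CPM in WT. Some of them were abundant, such as COL1A1 at 1387 CPM in TMEM9 KD and 824 CPM in WT, and COL3A1 at 957 CPM in WT. Others were low: LUM, COL1A2, POSTN, DCN, FAP and THY1 averaged 0.0556, 0.746, 1.09, 1.82, 4.73 and 9.09 CPM in WT. In TMEM9 KD these averaged 1.46, 0.0897, 0.888, 3.08, 7.55 and 0.976 CPM, in the same order. Of the 13 tested, 6 rose, 6 fell and 1 was not called, so the markers did not share 1 direction. The share called was 92.3%, beside 57.7% of all genes tested. COL3A1 fell by 4.94, THY1 fell by 3.21, COL6A2 fell by 1.55 and COL6A1 fell by 1.31 on the log2 scale (edgeR adjusted p = 1.36e-77, 3.47e-19, 1.55e-42 and 2.46e-36). LUM rose, with 28 and 21 counts in TMEM9 KD against 0 and 2 in WT, 23.8 times the WT level (95% counting bounds of 6.26 and 202, adjusted p = 5.9e-07). Its fitted log2 fold change was 4.42 with all libraries and 3.62 without WT replicate 1, and 7.57 without WT replicate 2, which leaves WT at 0 and is no bound. COL1A1, DCN, FAP, COL6A3 and S100A4 rose by 0.34 to 0.75. None of the 14 lacked counts altogether. Of 9 endothelial markers matched, ENG and ESAM passed the filter and were not called (adjusted p = 0.935 and 0.3), and the 9 summed to 83.8 and 90.1 CPM in TMEM9 KD and 83.3 and 86.1 CPM in WT. Nearly all of that sum was ENG, and without it the other 8 summed to 2.02 and 3.44 CPM in TMEM9 KD and 0.936 and 0.946 CPM in WT. VWF had 7 and 8 counts in TMEM9 KD against 1 and 0 in WT, TIE1 7 and 5 against 1 and 0, and CDH5 2 and 10 against 0 and 1, all too few to pass the filter. The part of other cell types in the chemokine levels was not tested.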

How the data were processed

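Raw counts per Ensembl gene, as the authors deposited them, had a column for each library. Per the submitters' processing notes, the builds hg19 and mm8 and the tools Bowtie 0.12.2 and CASAVA were used, without their roles. The sources used here name no counting tool, annotation or strand setting, so overlapping or antisense genes cannot be told apart.

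Counts were tested with the edgeR 4.0.16 quasi-likelihood F test in R 4.3.3 (TMM factors, filterByExpr with a minimum count of 10 and total of 15, group as the only term), with Benjamini-Hochberg adjustment over 14923 genes and a threshold of 0.05. SE was taken as the size of the log2 fold change divided by the root of F. Residual degrees of freedom were 2 for each gene, and the F test also drew on the spread of the other genes. The script was tested on simulated data. DESeq2 1.42.0 and limma 3.58.1 (voom), other scaling and filters, fits without 1 library and a replicate block were alternatives. Sums without ENG and counts without EGR1 were added after the values were seen. Symbols came from the gene table or GENCODE 29, and 260 of 276 list entries matched. Exon lengths and UTRs came from GENCODE 29 (GRCh38), and promoters from RefSeq.

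Members and lists were chosen with earlier results of these data known. Genes named were TMEM9, the members, the tested ligands and receptors, up to 5 called genes per list with the largest change, and the neighbours. IL1R1, IL1RAP, TNFRSF1A, TNFRSF1B, TNF, IRAK1, NFKB1, RELA, IRF1, KRT8, ERBB3 and the luminal markers near 0, MAVS, CGAS, EGR1, JUN, ZFP36, ELAVL1, ARID5A, smaller marker changes, ADAM10, ADAM17 and the interferon genes were named for their role after their values were seen. Libraries of a group differed beyond sampling noise (chi-square per degree of freedom 4.82 in TMEM9 KD and 2.04 in WT, genes with at least 20 counts), so each library was kept as a replicate. Intervals and floors cover counting error only. Some genes of the lists are not reported here.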

Additional observations from a re-analysis of the deposited data

How the results depend on the processing

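All 9 tested chemokine genes were lower in every fit that tested them (6 of them with a mean of at least 5 CPM, 10 without a filter). Of the refitted member values, 92 moved by less than the replicate spread and 4 by more: CXCL1 with library size only, CXCL10 without either TMEM9_KD library and CXCL11 without TMEM9_KD replicate 1. The number of genes called was 8618, against 6622 to 8578 when 1 library was left out. Same-numbered libraries did not deviate together (correlation 0.00077), and a replicate block gave 8437 calls. With a mean of at least 5 CPM, 1 other ligand, 1 receptor and 1 leukocyte marker were called. With DESeq2, 1 receptor and 3 leukocyte markers were called, and without a filter 1 endothelial marker. Leaving out a library gave 1 to 3 receptors and 3 to 5 leukocyte markers. CCR1, at -0.13 with all libraries, ranged from -0.61 (without TMEM9_KD replicate 1) to 0.25 (without TMEM9_KD replicate 2). In such fits the lone library was assumed to vary like the other group. Depth limits CXCL5, CCL2 and the receptors, whose counts were few.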

Other observations

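Genes whose pattern over the 4 libraries was most like that of 3 members were looked up among 10689 other tested genes averaging 5 CPM or more, by the root mean square difference of mean-centred log2 CPM (with 0.1 CPM added). Nearest to CXCL10 were CYBA, a subunit of NADPH oxidase (difference 0.0644), CSF3, the growth factor of granulocytes (0.242), and the basal keratin gene KRT14 (0.321). CYBA had 0.149 ± 0.0485 CPM in TMEM9 KD and 44.8 ± 0.201 CPM in WT, and CSF3 0.237 ± 0.0107 CPM in TMEM9 KD and 79.4 ± 1.98 CPM in WT. Nearest to CXCL1 were AP003119.3 (0.0451) and the collagen genes COL5A3 (0.056) and COL15A1 (0.0626), with 5.05 ± 0.064 CPM of COL5A3 in TMEM9 KD and 31.8 ± 1.02 CPM in WT. Nearest to CXCL8 were the transporter gene ABCA6 (0.00655), the semaphorin receptor gene PLXNB1 (0.0217) and the choline transporter gene SLC44A1 (0.0225). With 4 libraries in 2 groups, this likeness mostly reflects an equal fold change between the groups.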
